A study of Homo sapiens with 6 samples.

Results

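MDM2, CDKN1A, GADD45A, DDB2, BTG2 and PCNA are 6 textbook transcriptional targets of p53 whose products act in cell cycle arrest and DNA repair. They were taken by name from the 758 genes of the table of normalized counts. RNA was measured in JIMT-1, an established cell line grown from a HER2+ human breast tumor that resisted trastuzumab. Cells received either PBS as the control (CTL, 3 samples) or 250 µM aCT1 (3 samples), and both groups were collected at 24 h. The peptide aCT1 copies the end of connexin 43, a gap junction protein, and is joined to a cell-penetrating antennapedia segment. Each RNA was counted with barcoded probes on the nCounter Breast Cancer 360 panel, without amplification, and the counts were scaled to housekeeping genes by the authors. All 6 genes were among the 459 genes tested, which are the genes of the study's own differential expression list. The series compared aCT1 with CTL to see whether the peptide leaves a mark on breast cancer gene expression after a day.

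The p53 protein is a transcription factor that is stabilized when DNA is damaged or cells are stressed. MDM2 is the ubiquitin ligase that p53 induces and that then marks p53 for destruction, so it closes a feedback loop. CDKN1A encodes p21, an inhibitor of cyclin-dependent kinases that halts the cell cycle and also binds the PCNA clamp. GADD45A and BTG2 restrain the cycle at later and earlier steps, and DDB2 recognizes ultraviolet lesions for nucleotide excision repair. PCNA is the sliding clamp that holds DNA polymerases on the template during replication and repair. The activity of the p53 protein was not measured in this series.

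The p53 binding element was taken as a pair of half-sites of 10 bases, adjacent or 1 base apart, which reads alike on both strands. Pairs with a wider spacing were not searched. This pattern was searched by name in the RefSeq promoter windows of build GRCh38.p14, each from 250 bases before to 50 bases after a transcription start. A match with at most 2 mismatches over the 20 scored positions was present in 1.34% of the 35116 windows of all genes, and one with at most 3 in 9.75%. Windows were held for 5 of the 6 genes, all but GADD45A, and 3 of them had a match with at most 2 mismatches, namely MDM2, DDB2 and PCNA. The stretches with these matches follow to show what such a match looks like in 3 of the genes. Capitals mark the matches with at most 3 mismatches or, where matches overlap, the one with the fewest. The genes were chosen by name and not by these matches, and p53 binding was not measured. The stretches are a description of the reference sequence and were not read from JIMT-1 cells.
MDM2, chr12:68808903-68809000, plus strand: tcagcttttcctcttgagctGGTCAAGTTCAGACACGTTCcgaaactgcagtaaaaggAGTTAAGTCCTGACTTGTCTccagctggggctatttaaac
DDB2, chr11:47214964-47215003, plus strand: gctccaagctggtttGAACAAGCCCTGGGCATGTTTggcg
PCNA, chr20:5120149-5120208, minus strand: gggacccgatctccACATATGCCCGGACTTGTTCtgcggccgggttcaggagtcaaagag

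The MDM2 stretch holds a match with 2 mismatches, which begins 94 bases before a start of MDM2 transcription, and a second with 3 mismatches that begins 56 bases before it. Both lie in 2 of the 4 MDM2 windows, which overlap. In 1 of 2 DDB2 windows there are 2 overlapping matches. The one in capitals has 0 mismatches and a spacer of 1 base, and begins 5 bases after the annotated start. The other, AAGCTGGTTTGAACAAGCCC, has 1 mismatch and no spacer, begins 5 bases before that start and shares a half-site with the first. Matches with 0 mismatches occurred in 0.0199% of all windows. A match in the PCNA window, with 2 mismatches, begins 236 bases before 1 of 2 annotated starts. The single windows of CDKN1A and BTG2 held no match with at most 3 mismatches, which says only that these letters are absent from those windows.

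Mean RNA levels of all 6 genes in the aCT1 samples lay within a few percent of those in CTL. The percent changes here come from the means of the log2 values, so they can differ from ratios of the mean counts given below. The largest differences were in PCNA, at 5.95% above CTL, and in MDM2, at 5.42% above CTL. BTG2 was 4.67% and CDKN1A 0.270% above CTL, while GADD45A and DDB2 differed from it by -3.72% and -2.88%. Since whole cultures were lysed, a change in RNA per cell and a change in the share of cells with the RNA cannot be told apart. The paper reports more cell death in JIMT-1 cells at this dose and time, and its bearing on these RNA levels was not tested. No sample received a control peptide, so effects of the connexin and antennapedia segments cannot be told apart. In limma's moderated test on the log2 values, 0 of the 6 genes reached a p under 0.05 before adjustment, as 52 of the 459 genes tested did (11.3%). After Benjamini-Hochberg adjustment 0 of the 459 genes passed in limma (0%), and the smallest adjusted value was 0.246. It was 0.0139 with a variance trend and 0.0427 with all 758 genes of the table, and in neither was it that of one of the 6. The 3 aCT1 values lay apart from the 3 CTL values in 1 of the 6 genes, MDM2, beside 17.9% of the genes tested (12.4% with aCT1 higher and 5.45% with aCT1 lower). A share of 1 in 6 is near that background.

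**Figure D1:**
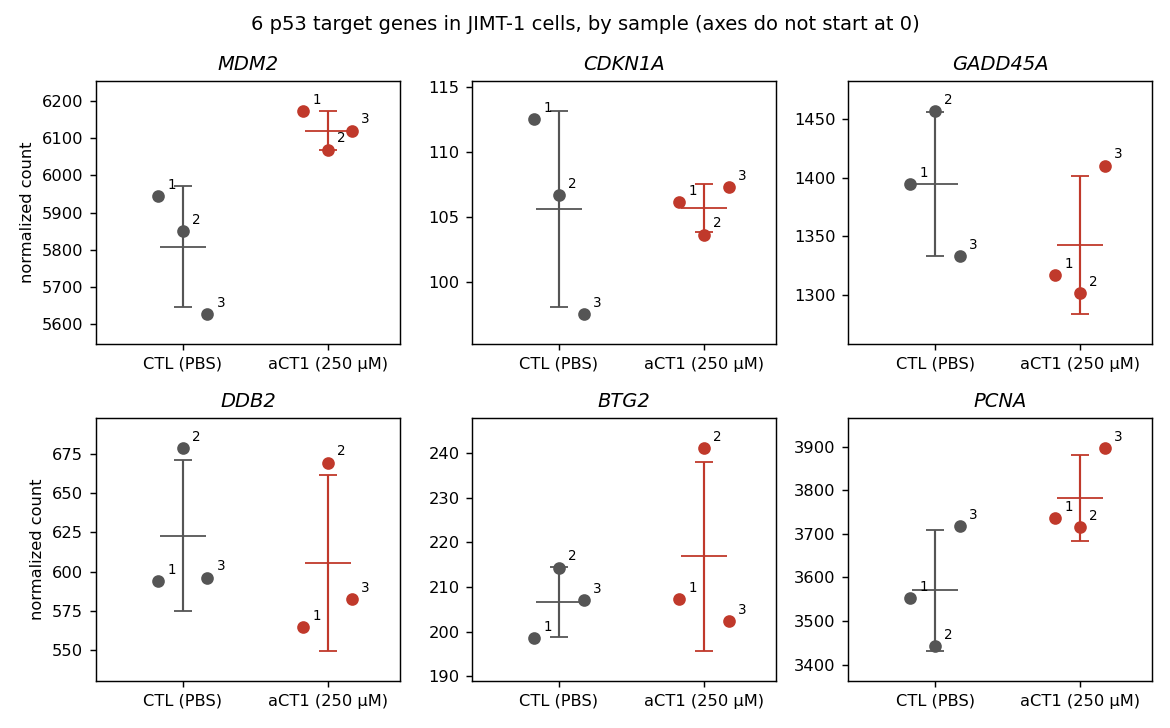
Normalized counts of the 6 genes in the 3 CTL samples (grey) and the 3 aCT1 samples (red), numbered by replicate, with a bar for the mean and whiskers for the SD; the axes differ between genes and do not start at 0. Only in MDM2 do the groups separate, and in DDB2 and BTG2 the sample numbered 2 is the highest of each group.

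MDM2, the feedback ligase of p53, had 5945, 5850 and 5628 normalized counts in the CTL samples and 6172, 6070 and 6121 in the aCT1 samples. Each aCT1 sample was above each CTL sample, and the aCT1 samples lay closer together. The means were 5808 ± 163 in CTL and 6121 ± 51.3 in aCT1 (SD, n = 3 each). The log2 fold change was 0.076 (standard error 0.032, 95% interval -0.0027 to 0.15), with a limma p of 0.437 after adjustment over the 459 genes. The two-sided exact permutation p was 0.1, the smallest that 3 samples against 3 allow. Before adjustment the limma p was 0.0562, which placed MDM2 at rank 59 of 459. It passed 0.05 before adjustment when the variance was not moderated (0.0359), with a variance trend (0.0166) and with quantile normalization (0.00531, at a log2 fold change of 0.12). The adjusted value ranged from 0.159 to 0.760 over 17 alternative settings.

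CDKN1A, the gene of p21, had 112.5, 106.7 and 97.5 normalized counts in CTL and 106.1, 103.6 and 107.3 in aCT1. The aCT1 values all lay inside the range of the CTL values. The means of 105.6 ± 7.57 and 105.7 ± 1.88 (SD, n = 3 each) gave a log2 fold change of 0.0039 (standard error 0.056, 95% interval -0.13 to 0.14, limma adjusted p = 0.984). The level of CDKN1A was 6.46 times the median of the 299 genes outside the study's list, the lowest such multiple among the 6 genes. Those 299 genes had mean normalized counts of at most 37.3. Counting alone gives its log2 fold change a standard error of 0.11, more than the fitted one, and a 95% interval of -14.2% to 17.2% for the change. Its direction was not settled, with a log2 fold change of -0.052 without CTL replicate 3, -0.0072 without aCT1 replicate 3, -0.0016 with total count scaling and -0.15 with quantile normalization.

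GADD45A, whose product restrains the G2 to M transition and binds PCNA and p21, had 1394, 1457 and 1333 normalized counts in CTL. The aCT1 samples had 1317, 1301 and 1410. Replicates 1 and 2 of aCT1 were below all CTL values, and replicate 3 was above CTL replicates 1 and 3. The means were 1395 ± 61.8 and 1343 ± 59.0 (SD, n = 3 each), with a log2 fold change of -0.055 (standard error 0.049, 95% interval -0.17 to 0.065, limma adjusted p = 0.703). The exact permutation p was 0.3, and the fold change was below 0 in all 17 alternatives, from -0.091 to -0.023.

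DDB2, the lesion-recognition subunit of nucleotide excision repair, had 594, 679 and 596 normalized counts in CTL and 565, 670 and 583 in aCT1. In both groups the sample numbered 2 stood above the other two, and the groups overlapped. The means were 623 ± 48.4 and 606 ± 56.2 (SD, n = 3 each), with a log2 fold change of -0.042 (standard error 0.084, 95% interval -0.25 to 0.16, limma adjusted p = 0.904). This was the widest interval of the 6 genes, -15.7% to 11.9%. The value turned to 0.021 without CTL replicate 2 and to 0.0064 without aCT1 replicate 1.

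BTG2, an antiproliferative gene that acts on the G1 to S step, had 199, 214 and 207 normalized counts in CTL and 207, 241 and 202 in aCT1. A single aCT1 sample, replicate 2, was above the CTL range, and the other 2 lay inside it. The means were 207 ± 7.86 and 217 ± 21.1 (SD, n = 3 each), with a log2 fold change of 0.066 (standard error 0.074, 95% interval -0.11 to 0.25, limma adjusted p = 0.768). Without aCT1 replicate 2 the log2 fold change was -0.013.

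PCNA, the replication and repair clamp, had 3552, 3443 and 3718 normalized counts in CTL and 3735, 3715 and 3897 in aCT1. Overlap came from one pair of samples, since CTL replicate 3 was just above aCT1 replicate 2. The means were 3571 ± 138 and 3782 ± 99.6 (SD, n = 3 each). The log2 fold change was 0.083 (standard error 0.041, 95% interval -0.015 to 0.18), with an adjusted limma p of 0.464 and an exact permutation p of 0.2. Before adjustment the limma p was 0.0846, and it was 0.0244 with a variance trend and 0.0328 without CTL replicate 3, where the log2 fold change was 0.11. The adjusted limma p ranged from 0.249 to 0.765 over the alternatives.

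The log2 fold change was above 0 in 4 of the 6 genes and below 0 in 2, near the 60.3% of the 459 genes above 0. All 6 of the 95% intervals include 0, so these signs do not show whether the 6 genes moved together or apart. Their median log2 fold change was 0.035, beside 0.014 for all genes tested, and their median absolute log2 fold change was 0.060, beside 0.047. Over the 95% intervals of limma, the data leave room for a change of MDM2 from -0.189% to 11.3% and of BTG2 from -7.58% to 18.5%, the highest upper bound of the 6.

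**Figure D2:**
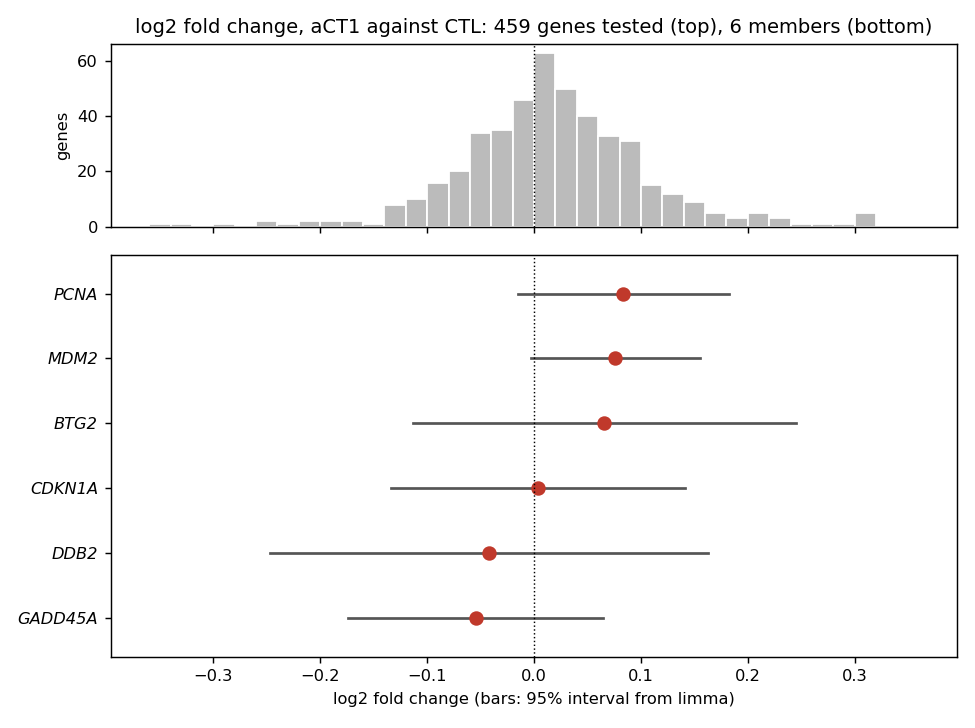
Top, histogram of the log2 fold change of aCT1 against CTL over the 459 genes tested; bottom, the log2 fold change of each of the 6 genes (red points) with its 95% interval from limma (lines). All 6 intervals include 0, and PCNA (0.083) and MDM2 (0.076) lie highest.

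The spread between samples set how small a change could be seen. For each gene, the pooled SD of its log2 values within groups was set beside the SD that counting barcodes alone would give. In MDM2 the SD was 0.030, or 1.60 times that of counting, in GADD45A it was 1.62 times, in PCNA 2.00 times and in DDB2 2.07 times. BTG2, at 1.05 times, varied about as much as counting alone would give, and CDKN1A, at 0.541 times, varied less. The median ratio over the 459 genes was 1.31, and 71.0% of the genes varied more than counting alone.

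**Figure D3:**
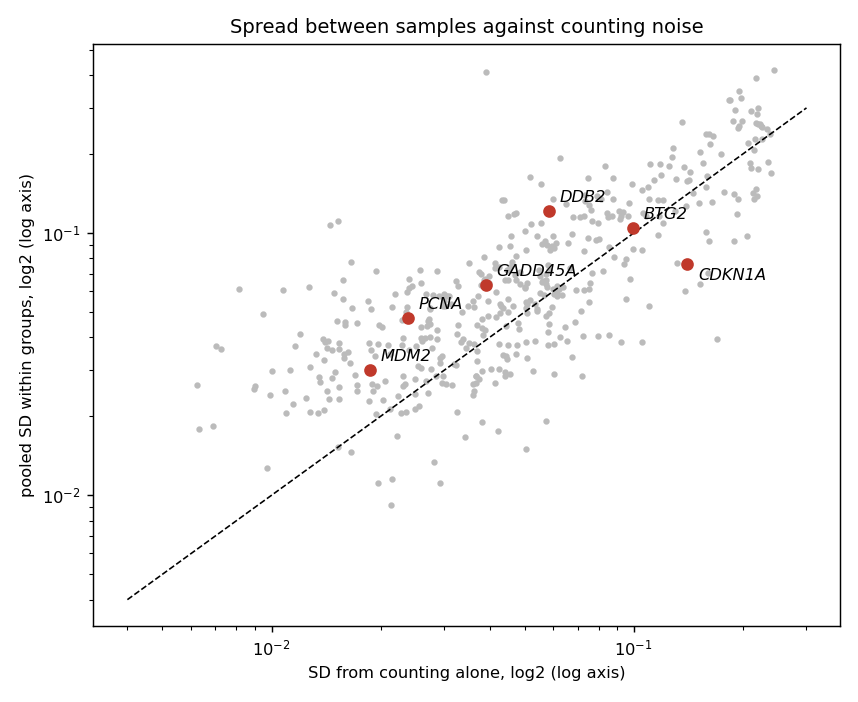
Pooled SD of log2 values within groups against the SD expected from counting alone, for the 459 genes tested (grey) and the 6 p53 targets (red), both axes logarithmic; on the dashed line the values are equal. DDB2 (0.12 within groups) and PCNA (0.048) lie at about 2.07 and 2.00 times counting noise, and CDKN1A (0.076) lies below the line.

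Ratios between the genes within a sample do not depend on how that sample was scaled. Of the 15 pairs, the ratio of MDM2 to GADD45A separated the groups. It was 4.26, 4.02 and 4.22 in the CTL samples and 4.69, 4.66 and 4.34 in the aCT1 samples, so every aCT1 sample had more MDM2 relative to GADD45A than every CTL sample. The difference in log2 ratio was 0.13 (standard error 0.045), with an exact permutation p of 0.1 and 0.75 after adjustment over the 15 pairs, and it lay between 0.10 and 0.17 when any single sample was left out. A design of 3 samples against 3 cannot reach 0.05 in this test. The ratio of GADD45A to PCNA differed most in size, by -0.14 (standard error 0.071, exact permutation p = 0.2), but CTL replicate 3 lay among the aCT1 samples. DDB2 relative to BTG2 was 2.99, 3.17 and 2.88 in CTL and 2.72, 2.78 and 2.88 in aCT1, a difference of -0.11 (standard error 0.046, exact permutation p = 0.2). MDM2 and PCNA kept nearly the same ratio, with a difference of -0.0073 (standard error 0.057).

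**Figure D4:**
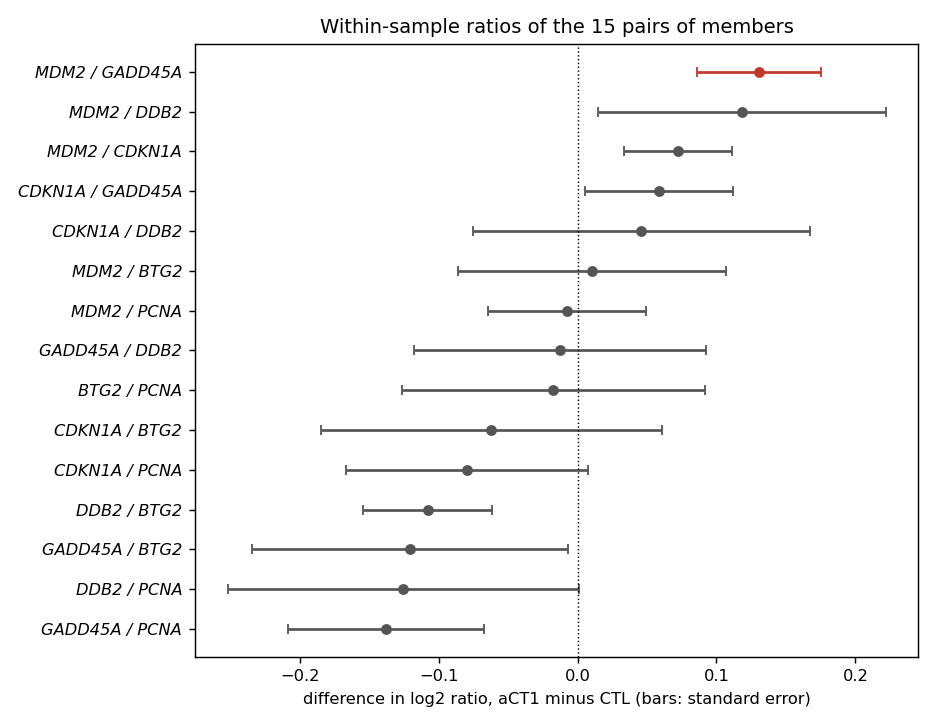
Difference between aCT1 and CTL in the within-sample log2 ratio of each of the 15 pairs of the 6 genes, with its standard error; red marks the pair whose groups do not overlap. The ratio of MDM2 to GADD45A lies at 0.13 and that of MDM2 to PCNA at -0.0073.

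Genes whose profile over the 6 samples was most like each of these were found by the root mean square difference of centred log2 values among 401 other genes with a mean of at least 100 normalized counts. For MDM2 these were PIK3CA, a catalytic subunit of PI3K, at 0.018 and the mitotic kinesin KIF23 at 0.018, against a median of 0.064 over the genes searched. FOSL1, a subunit of AP-1, and CDCA7L were nearest to GADD45A, at 0.018 and 0.019. For PCNA they were SOCS1 at 0.025 and the recombination factor RAD54L at 0.027, and for CDKN1A they were JCAD at 0.024 and the proliferation marker MKI67 at 0.029. DDB2 and BTG2 shared KIAA0040 as nearest gene, at 0.052 and 0.036, with SOCS3 at 0.053 second for DDB2 and PIK3R2 at 0.036 for BTG2. As the nearest of 401 genes over 6 samples, these are descriptions without a test.

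A list of p53 network genes, among them cofactors and the kinases that respond to DNA damage, had 8 of its 16 genes in the table. By log2 fold change 6 of them were above 0 (60.3% of all genes) and 2 below, and 1 was higher in aCT1 at a limma p under 0.05 before adjustment, beside 7.84% of all genes tested. That gene was EP300, an acetyltransferase that p53 recruits to its targets, which went from 1508 ± 40.4 to 1604 ± 13.2 normalized counts (SD, n = 3 each). The log2 fold change of EP300 was 0.089 and its adjusted limma p was 0.394. EP300 was also the 1 gene of the 8 whose groups did not overlap, higher in aCT1 as were 12.4% of all genes tested.

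The apoptotic arm of the p53 response was measured through 2 of 13 listed targets, BAX and BBC3. Both had a log2 fold change above 0 and groups that did not overlap, and BBC3, which encodes PUMA, had an unadjusted limma p under 0.05. Over all 459 genes tested, 60.3% were above 0, 12.4% were higher in aCT1 without overlap and 7.84% were higher at that p. BBC3 had 251, 274 and 276 normalized counts in CTL and 307, 333 and 291 in aCT1, a log2 fold change of 0.22 (limma adjusted p = 0.325). The difference between BBC3 and the 6 arrest and repair targets was not tested. Of the remaining p53 targets, 7 of 8 tested genes were above 0 and, beside 11.3% of all genes, 0 reached a limma p under 0.05 before adjustment, with a median of 0.048. SERPINB5, the tumor suppressor maspin, came nearest, at 0.084 (limma adjusted p = 0.464), and GADD45G, a relative of GADD45A, was among the genes outside the study's list. For GADD45B, the other relative, the log2 fold change was 0.056 with a standard error of 0.11. In 2 of these 8 remaining targets the groups did not overlap, each higher in aCT1, beside 12.4% of all genes tested.

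Genes of the cell cycle machinery around p21 and the GADD45 proteins came next. Of 17 tested cyclins, kinases, phosphatases, RB family members and E2F1, 12 were above 0 and 5 below, with a median of 0.012, beside 60.3% above 0 and a median of 0.014 over all genes tested. At an unadjusted limma p under 0.05, 1 was higher, beside 7.84% of all genes, which is near the background. In 4 of the 17, the 3 aCT1 values all lay above the 3 CTL values, beside 12.4% of all genes tested. The list as a whole was not tested. The gene under that p was WEE1, the kinase that holds CDK1 inactive. It had 3227 ± 53.7 normalized counts in CTL and 3461 ± 43.9 in aCT1 (SD, n = 3 each) and a log2 fold change of 0.10 (limma adjusted p = 0.325). Among the 7 other CDK inhibitors, 5 were above 0 (60.3% of all genes), and 2 were higher at a limma p under 0.05 before adjustment (7.84% of all genes). These were CDKN2B, the gene of p15, with 841, 833 and 901 normalized counts in CTL and 974, 977 and 954 in aCT1, and CDKN1B, the gene of p27. In these 2 of the 7 the groups did not overlap, each higher in aCT1, beside 12.4% of all genes tested. CDKN2B had a log2 fold change of 0.17 (limma adjusted p = 0.283) and CDKN1B one of 0.13 (limma adjusted p = 0.394), against 0.0039 for CDKN1A.

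Of the clamp loader, polymerase, helicase and excision repair genes that work with PCNA and DDB2, 8 of 28 were tested, 6 above 0 and 2 below, with a median of 0.018, where 60.3% of all genes were above 0. ERCC1, a nuclease subunit of excision repair, was the 1 gene of the 8 with an unadjusted limma p under 0.05, higher in aCT1 as were 7.84% of all genes. It had 724, 771 and 712 normalized counts in CTL and 786, 825 and 841 in aCT1, a log2 fold change of 0.15 (limma adjusted p = 0.325). RFC4, a subunit of the loader that places PCNA on DNA, had 0.013, POLD1, a polymerase held by the clamp, had 0.012, and the replicative helicase subunits MCM2 and MCM3 had 0.024 and -0.0096 on the log2 fold change scale. CETN2, RBX1 and GTF2H2 had log2 fold changes of 0.063, 0.049 and -0.014. Groups did not overlap in 3 of the 8 genes, namely ERCC1, CETN2 and RBX1, each higher in aCT1, beside 12.4% of all genes tested. The value of PCNA was 0.083, and differences from it were not tested.

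The DREAM complex represses proliferation genes once p53 has induced p21. Of 21 tested genes of this kind, 15 were above 0 (60.3% of all genes) and 6 below, with a median of 0.021 and a range from -0.037 to 0.10. KIF2C and AURKB, which act on kinetochores in mitosis, had an unadjusted limma p under 0.05, and both were higher in aCT1, at 0.10 each (adjusted limma p of 0.391 and 0.394). At that threshold 2 of the 21 were higher and 0 lower, beside 7.84% and 3.49% of all genes tested, so the list is near the background. In 3 of the 21 the groups did not overlap, each higher in aCT1, beside 12.4% of all genes tested. The lists share genes with one another. CCNB1, CCNA2, CDK1 and CDC25C are counted both in the list of cyclins, kinases and phosphatases and here. CDKN2A is counted both as a p53 network gene and as a CDK inhibitor.

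**Figure D5:**
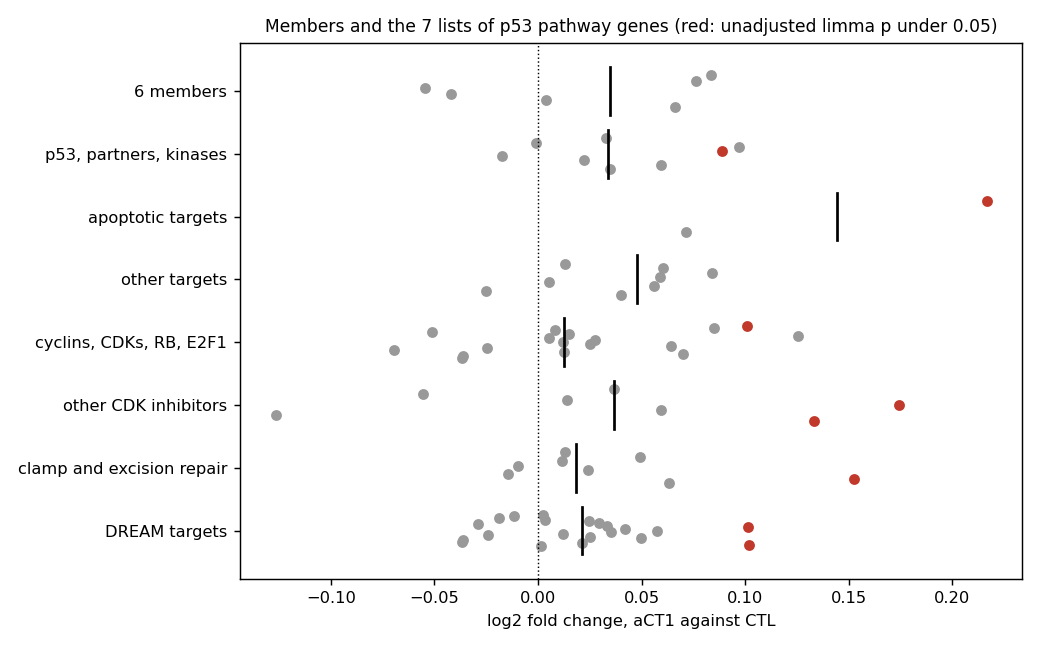
Log2 fold change of aCT1 against CTL for the 6 p53 targets and for each tested gene of the 7 lists of related genes, with a black line at the median of each; red marks an unadjusted limma p under 0.05. The 6 targets have a median of 0.035 and hold no red point, and BBC3, at 0.22 among the apoptotic targets, lies farthest to the right.

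The samples were alike in depth, with 1437572 to 1494919 barcode counts each, and JIMT-1 showed its labelled type in all of them. All 8 epithelial and HER2+ markers in the table, ERBB2 and CDH1 among them, were tested, and their summed level was 39815 to 42292 in CTL and 40165 to 44249 in aCT1. Of 4 leukocyte markers in the table only CD68 was tested, and their sum was 101 to 115 in CTL and 92.0 to 115 in aCT1. The sum of 6 endothelial and fibroblast markers was 151 to 157 in CTL and 136 to 144 in aCT1. Whether the 3 samples of a group came from separate cultures is not given in the labels, so the p-values measure the spread between these samples, which may be technical.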

How the data were processed

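RNA of JIMT-1 cells, 3 CTL and 3 aCT1 samples, was counted with nCounter Breast Cancer 360 probes. Using nSolver 4.0, the authors scaled each sample by its housekeeping genes. They deposited the result as a linear signal (normalized counts) and as its log2 values. Each linear value was a whole multiple of 1 step per sample (100% within 0.001), and these multiples were taken as barcode counts for totals and counting error. For 4 of the 6 samples the step lay within 1% of 1, too close for the unit check that was used to accept the recovery. No count test was run. Counting error covers counting alone.

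Groups came from the sample titles. Deposited log2 values of the 459 genes in the study's list were fitted with limma 3.58.1 (R 4.3.3), aCT1 against CTL, two-sided, with Benjamini-Hochberg adjustment over the 459 genes. The other 299 genes had mean normalized counts of at most 37.3. Single ratios used exact permutation over the 20 assignments of samples. The fit was also run on simulated data, and the outcome is not used for changes as small as those of the 6 targets. Named genes are the 6 targets, list genes with an unadjusted p under 0.05 or else the smallest p, and the 2 nearest profiles for each target. BAX, GADD45B, GADD45G, RFC4, POLD1, MCM2, MCM3, CETN2, RBX1 and GTF2H2 were named after their values were seen. One gene of the lists is not reported here by name. The members and lists were chosen with earlier results of these data known. Alternatives were no moderation, a variance trend, pseudocounts of 1 and 10, median, quantile and total count scaling, background subtraction, a minimum mean of 50 normalized counts, no filter, the replicate block and each sample left out.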

Additional observations from a re-analysis of the deposited data

How the results depend on the processing

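Of the 6 targets, MDM2, PCNA and GADD45A kept their direction in all 17 alternatives. Without moderation MDM2 passed an unadjusted p of 0.05 at a log2 fold change of 0.076, with the variance trend MDM2 passed at 0.076 and PCNA at 0.083, and with quantile normalization MDM2 passed at 0.12. Leaving out one sample, log2 fold changes ranged from 0.054 to 0.093 for MDM2, from 0.057 to 0.11 for PCNA (passing without CTL replicate 3), from -0.091 to -0.023 for GADD45A, from -0.013 to 0.11 for BTG2, from -0.12 to 0.021 for DDB2 and from -0.052 to 0.051 for CDKN1A. BTG2 turned to -0.013 without aCT1 replicate 2. DDB2 turned to 0.021 without CTL replicate 2 and 0.0064 without aCT1 replicate 1. CDKN1A turned to -0.052 without CTL replicate 3, -0.0072 without aCT1 replicate 3, -0.15 with quantile normalization and -0.0016 with total count scaling. The median of the 6 was 0.0011 with quantile normalization and lay between 0.00073 (without CTL replicate 3) and 0.044 on leaving out one sample, with 0.0026 without aCT1 replicate 2. The number of the 15 ratios whose groups do not overlap was 1, became 2 with a pseudocount of 10 and 2 with background subtracted, and lay between 1 and 6 on leaving out one sample (2 without CTL replicate 1, 6 without CTL replicate 3, 4 without aCT1 replicate 2 and 5 without aCT1 replicate 3), where smaller groups overlap less by construction. The cause of the other changes was not tested.

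Over all genes, 52 passed p under 0.05 before adjustment, 47 to 68 under other settings with all samples kept, and 35 to 58 on leaving one out. Of the 52, 36 were higher and 16 lower. Median centring gave 29 higher and 23 lower, quantile normalization 33 higher and 35 lower, and leaving out aCT1 replicate 2 gave 18 higher and 19 lower. With the replicate number as a block, 47 genes passed, the standard error of DDB2 was 0.036 and its limma adjusted p = 0.743, and no target changed its call. Samples with one number, each centred on its group, correlated across genes at -0.014, 0.19 and -0.15, so the numbers were not taken to pair the samples. The planned edgeR and DESeq2 tests were not run, since the unit check did not accept the recovery of counts in 4 samples. Depth limits CDKN1A and BTG2 most, where counting alone gives standard errors of 0.11 and 0.081 on the log2 fold change.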
